A study of Homo sapiens with 5 samples.

Results

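Ion channel subunit genes were examined in 5 libraries of SH-SY5Y cells, a cloned human neuroblastoma line of noradrenergic character. The genes are the voltage-gated and potassium channel subunits, chosen by symbol alone: the potassium channel symbols that start with KCN, the sodium channel alpha and beta subunits (SCN), the voltage-gated calcium channel subunits (CACNA, CACNB, CACNG) and the HCN pacemaker channel genes. Of the 26364 symbols with values, 139 matched, and the non-coding KCNQ1OT1 and KCNQ1DN were left out. Each group was 1 library: siControl, siSTAU1 and siUPF1 (named after small interfering RNAs, against STAU1 and UPF1 in the last 2), Nondifferentiation and Differentiation. The media labels give 10% serum and 1% antibiotics for all 5 groups, and 50 µM retinoic acid for both Nondifferentiation and Differentiation. Retinoic acid is a common inducer of neuronal differentiation in this line. The design text asks which transcripts increase both on depletion of STAU1 or UPF1, proteins of Staufen-mediated mRNA decay, and during differentiation. The sources used here do not give the doses of small interfering RNA or the times of transfection and treatment.

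Voltage-gated sodium and calcium channels carry the inward currents of the action potential and of transmitter release, and potassium channels restore and set the membrane potential. Each is built from a pore-forming subunit, and many bind accessory subunits that alter gating or bring the pore to the membrane. During neuronal maturation cells are known to exchange some of these subunits for others. The members comprised 103 pore-forming and 36 accessory genes in 12 role classes.

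Values are deposited log2 expression values from 3' end sequencing, brought to the same distribution in every library, and a value is given for each library in the order siControl, siSTAU1, siUPF1, Nondifferentiation and, last, Differentiation. Whole-number counts could be recovered from the values, up to 388 in siControl and 612 in Differentiation. Each limit lies just below the first count whose deposited value was not returned when quantile normalization was repeated. Within that range 100% of the deposited values were therefore returned by definition, which is no separate check. Estimated total counts were 16616530, 17419560, 18631347 and 18776629 in the first 4 libraries and 26164214 in Differentiation. For many symbols all counts share a divisor: every count of CACNA1C was 0 or 23, and every count of KCNIP4 was a multiple of 6. Of 33 members whose 5 counts were all recovered, with at least 3 above 0 and one of 30 or more, 16 had a common divisor above 1, against 21.5% of 6012 such symbols. Among symbols with 1 curated RefSeq transcript 3.5% of 2226 had one, and with 2 transcripts 37.4% of 1059 had counts that were all multiples of 2. Levels are therefore not compared between genes, and counting errors below are from counts divided by the common divisor, where the counts were recovered, and are lower bounds. With 1 library per group no test was possible, so every difference is between 2 libraries and has no replicate check.

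The targeted genes were low in their own libraries. STAU1 stood at 11.34 in siSTAU1 and between 12.86 and 12.89 in the other 4 libraries, and UPF1 at 9.20 in siUPF1 and between 10.62 and 10.74 elsewhere. CYP26A1, a retinoic acid-induced enzyme, was listed at 0 in Nondifferentiation, which the label says contained retinoic acid, and at 14.38 in Differentiation. All 12 noradrenergic neuroblastoma markers had counts in every library, with summed levels of 15.74 to 16.13 on the log2 scale, but single markers differed: from Nondifferentiation to Differentiation the log2 folds were -3.23 for TH, -2.90 for ISL1, -2.31 for DBH and 1.60 for CHGA. In siControl against Nondifferentiation they were -2.13 for TH and -1.12 for DBH. Of 10 epithelial markers all had counts in siSTAU1 and 5 to 9 in the others, with a summed level of 10.16 in siSTAU1 against 8.99 to 9.32. The summed level of 8 hepatocyte markers, nearly all from ALB, was 9.07 in siUPF1 and 2.68 to 7.10 elsewhere, and that of 8 mesenchymal markers, mostly FN1, was 16.69 in Differentiation and 15.59 to 15.91 elsewhere. Of 7 glial markers 4 had counts in each library, SOX10 and OLIG2 were at 0 in all, and the summed level was 7.10 in Differentiation against 5.66 to 6.15. At most 2 of 7 muscle markers had counts in any library. In bulk RNA, fewer cells of a type and less RNA per cell cannot be told apart.

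Channel subunits were sparse in these cells. No count was recorded in any library for 45 members (32.4%, against 27.3% of all symbols), 52 had counts in all 5 libraries and 42 in some. A count of 0 allows up to 3 counts by counting error alone. A gene was called measured in a comparison when the larger of its 2 values reached the median of all nonzero values, a log2 floor of 7.76 to 7.84. By this rule 24 members were measured in at least 1 comparison (17.3%, against 35.1% of all symbols), 17 in all 4 comparisons, and 70 had counts but were never measured. The measured genes were 10 of the 103 pore-forming and 14 of the 36 accessory subunits. The floor was applied to undivided values. Counts share a divisor above 1 for the accessory CACNA2D2, CACNB4, CACNG6 and KCNIP4, and for the pore-forming KCNH1, KCNQ5, KCNT2 and SCN8A. These numbers therefore depend in part on the divisors and do not compare levels. None of the 10 pore-forming calcium channel genes was measured or had a count in all 5 libraries, and 6 of them (CACNA1D, CACNA1E, CACNA1F, CACNA1G, CACNA1I and CACNA1S) had no count at all. Genes of all 3 classes named as accessory calcium channel subunits were measured: 2 of 4 alpha2delta, 3 of 4 beta and 4 of 8 gamma genes. The gamma class was set by symbol. Its measured genes were CACNG4, CACNG7 and CACNG8, which are AMPA receptor regulatory proteins, and CACNG6, measured only through Differentiation. Members with no count also included the A-type channels KCND2 and KCND3, and KCNQ3, a subunit of the M-current.

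**Figure D1:**
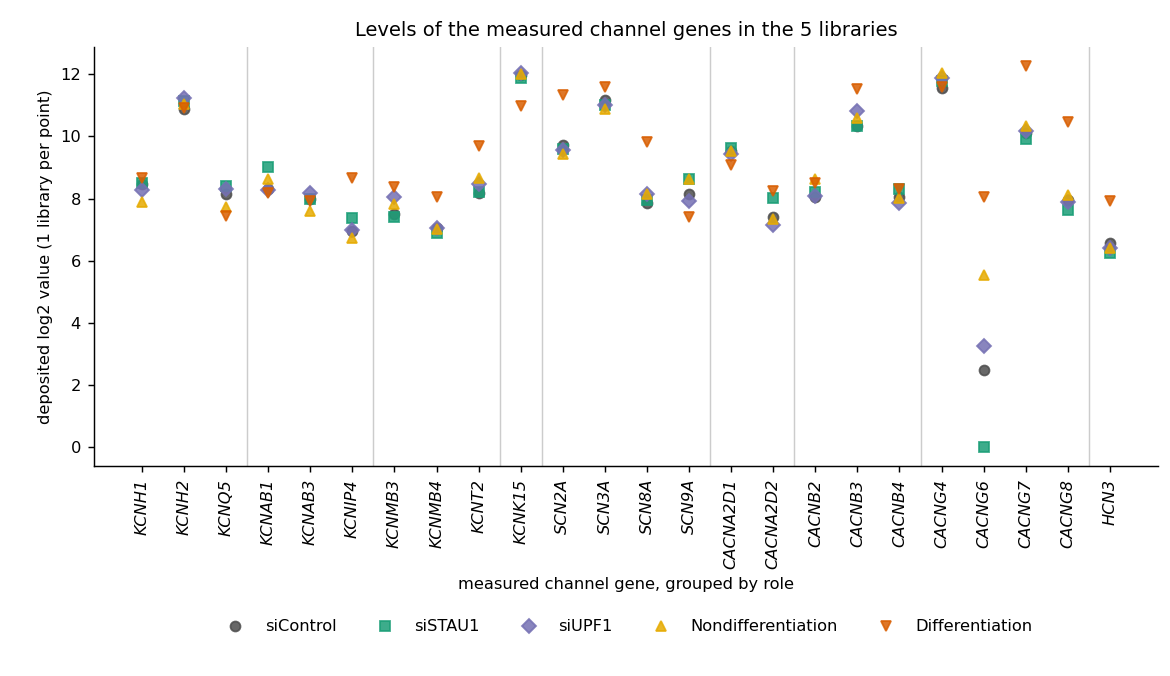
Deposited log2 value (y axis) of each of the 24 measured channel genes (x axis, grouped by role with grey lines between classes), 1 point per library and gene, without error bars since each group is 1 library. Differentiation stands apart from the other 4 libraries for CACNG7, CACNG8, SCN2A, SCN8A and KCNIP4, and CACNG6 is the gene with the widest spread among those 4.

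Differentiation and Nondifferentiation differed in more measured members than the other pairs did, and the same held for all measured symbols. In the other pairs 0.0946% (siSTAU1), 0.401% (siUPF1) and 0.222% (siControl against Nondifferentiation) of all measured symbols were 2-fold higher. Of 23 measured members 9 were at least 2-fold higher in Differentiation, a share of 39.1% beside 10.4% of 9064 measured symbols. A further 2 were at least 2-fold lower (8.70%, beside 10.9% of all), which is near the background, and 12 stayed within 2-fold. The median log2 fold of the measured members was 0.79, that of all measured symbols 0.016. Since 4 of the 9 (CACNG6, HCN3, KCNIP4 and KCNMB4) were measured only through their value in Differentiation, the 17 members at or above the floor in Nondifferentiation were also counted: 5 were higher, beside 6.59% of 8382 symbols, and 2 lower, beside 11.8%. The floor was applied to the deposited values and not to divided counts. The counts of CACNG6 and KCNIP4 were multiples of 4 and 6. Their values in Differentiation, 8.04 and 8.67, were less than 2-fold above the floor of 7.76. Division by 4 and 6 would therefore put both below that floor. Which of the 9 would pass a floor set anew from divided counts was not tested. Differentiation lay above all 4 other libraries for 15 of the 23 members and below all 4 for 4, beside 41.5% and 39.5% of measured symbols. These placements and the median of 0.79 include members measured only through Differentiation, a selection that favours higher values there. Neither was repeated for the 17 members.

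**Figure D2:**
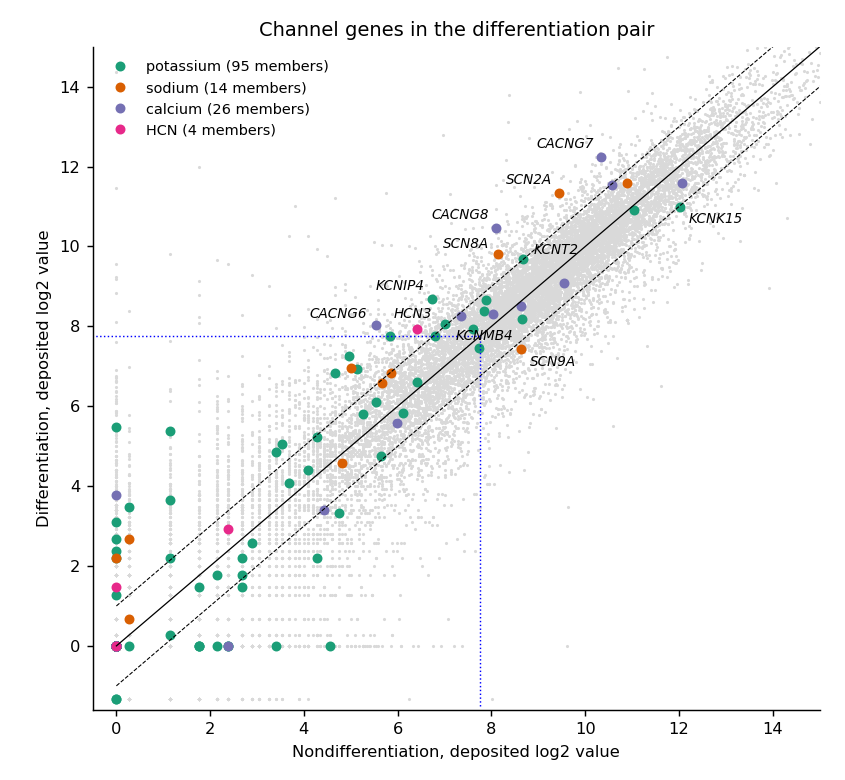
Deposited log2 value in Nondifferentiation (x axis) and Differentiation (y axis) for all symbols (grey) and the 139 channel genes (coloured by family), 1 library each. The solid line is equality, dashed lines are 2-fold differences and blue dotted lines bound the genes below the floor of 7.76 in both libraries, and the 9 members called higher and 2 called lower are named.

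The sodium channel alpha subunits, the pores of the fast inward current, did not move together. SCN2A (Nav1.2, a main channel of the axon initial segment early in development) stood at 9.73, 9.61, 9.56 and 9.44, and at 11.34 in Differentiation. Its log2 fold over Nondifferentiation was 1.90 with a counting error of 0.06. SCN8A (Nav1.6, the main channel of mature nodes of Ranvier and axon initial segments) stood at 7.84, 7.95, 8.16 and 8.14, and at 9.82 in Differentiation, a log2 fold of 1.67 ± 0.14 (counting error). For both genes Differentiation was far above a narrow group of 4. SCN9A (Nav1.7, the channel of sympathetic and pain-sensing neurons) was lower instead, with values of 8.15, 8.63, 7.93 and 8.63 against 7.42, and counts of 242, 348, 233 and 381 against 241 in the deeper Differentiation library. Its log2 fold was -1.21 ± 0.12, and all 4 other libraries lay above Differentiation. SCN3A (Nav1.3, mainly embryonic) was within 2-fold, between 10.88 and 11.17 in the 4 libraries against 11.60, a log2 fold of 0.72.

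The 300 bases around the RefSeq start sites (250 before and 50 after, GRCh38.p14, whereas the deposited values used hg19) are shown for the 3 sodium channel genes past 2-fold and for CACNG6, since SCN2A and SCN8A were both higher but differ in base composition. Sequences run 5' to 3' on the gene's strand, and capitals mark the GC box GGGCGG or its reverse complement.
SCN2A (chr2:165239164-165239463, plus strand): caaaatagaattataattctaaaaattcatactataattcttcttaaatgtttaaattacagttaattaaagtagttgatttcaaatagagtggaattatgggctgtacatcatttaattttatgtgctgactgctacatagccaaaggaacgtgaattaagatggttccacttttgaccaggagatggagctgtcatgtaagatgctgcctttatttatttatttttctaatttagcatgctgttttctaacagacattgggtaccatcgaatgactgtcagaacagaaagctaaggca
SCN8A (chr12:51590983-51591282, plus strand): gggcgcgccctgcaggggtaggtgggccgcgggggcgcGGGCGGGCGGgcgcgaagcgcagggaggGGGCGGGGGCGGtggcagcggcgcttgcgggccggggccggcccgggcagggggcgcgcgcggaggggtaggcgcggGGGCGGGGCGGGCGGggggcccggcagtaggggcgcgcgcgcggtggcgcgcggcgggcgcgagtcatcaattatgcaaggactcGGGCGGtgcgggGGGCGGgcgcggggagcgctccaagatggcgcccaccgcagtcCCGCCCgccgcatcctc
SCN9A (chr2:166375895-166376194, minus strand): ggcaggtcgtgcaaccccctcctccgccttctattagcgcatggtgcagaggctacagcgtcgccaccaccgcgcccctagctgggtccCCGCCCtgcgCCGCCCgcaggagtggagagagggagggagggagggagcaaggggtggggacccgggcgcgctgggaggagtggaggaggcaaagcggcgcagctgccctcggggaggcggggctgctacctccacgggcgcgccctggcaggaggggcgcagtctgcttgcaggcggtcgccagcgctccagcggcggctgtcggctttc
CACNG6 (chr19:53991387-53991686, plus strand): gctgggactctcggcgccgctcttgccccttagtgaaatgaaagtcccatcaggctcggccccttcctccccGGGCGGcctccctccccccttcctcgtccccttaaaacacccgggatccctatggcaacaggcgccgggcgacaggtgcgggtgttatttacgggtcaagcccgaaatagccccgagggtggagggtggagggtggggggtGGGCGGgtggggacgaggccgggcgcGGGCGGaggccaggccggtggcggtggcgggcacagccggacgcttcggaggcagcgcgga
The SCN2A window held 2 CpG dinucleotides, 31.7% G and C and no GC box. The SCN8A window held 52 CpG, 84.0% G and C and 10 GC boxes, overlapping ones counted. SCN9A, lower in Differentiation, held 28 CpG and 2 GC boxes, and CACNG6 held 29 and 3. Over 27305 promoters the median was 13 CpG. A GC box on either strand was present in 43.8% of all promoters and in 61 of the 100 members with an entry, while the other 39 members had none in the table. The nuclear receptor half-site AGGTCA was present in 14% of all and in 7 members, and that half-site repeated after 5 bases, the DR5 element, in 0.00366% and in 0 members. REST is a repressor of neuronal genes that binds a long bipartite site: its left part TTCAGCACC was present in 0.407% of promoters and in 3 members (CACNG3, KCNH6 and KCNK3), and its right part GGACAGC in 6.11% and in 11 members, KCNH6 and KCNK3 among them. None of the 7 members past 2-fold in Differentiation that had an entry carried either part in this window. Such matches describe letters and are not binding sites.

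The other sodium channel genes were below the floor in this pair. SCN1A (Nav1.1) stood at 6.31, 7.35, 6.14 and 5.86, and at 6.83 in Differentiation, and was highest in siSTAU1. Of the beta subunits, which anchor and modulate the pore, none was measured. SCN3B had counts of 12, 10, 28 and 30, and 176 in Differentiation. It was highest in Differentiation.

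The 2 largest log2 folds among measured members were those of calcium channel gamma subunits. CACNG7, CACNG8 and CACNG4 belong to the transmembrane AMPA receptor regulatory proteins, which traffic glutamate receptors, whereas CACNG6 is related to the skeletal muscle channel subunit CACNG1. CACNG7 stood at 10.12, 9.91, 10.17 and 10.33, and at 12.25 in Differentiation, a log2 fold of 1.92 ± 0.05. CACNG8 stood at 7.94, 7.63, 7.88 and 8.10, and at 10.46, a log2 fold of 2.36 ± 0.10. In both the 4 other libraries lay within 0.47 of each other. CACNG6 had counts of 4, 0, 8 and 44, and 356 in Differentiation, all multiples of 4, and its log2 fold of 2.49 carried a counting error of 0.46. Its Nondifferentiation value of 5.54 was also above those of the 3 transfected libraries, which were 2.49, 0 and 3.26. CACNG4 did not follow: it stood at 11.57, 11.79, 11.87 and 12.05, and at 11.58 in Differentiation.

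These genes lie in 3 clusters of the genome, and neighbours within a cluster differed. In RefSeq order on chromosome 19, CACNG7, CACNG8, CACNG6 and VSTM1 follow one another. All 3 gamma genes were over 2-fold higher in Differentiation, and VSTM1 was at 0 in every library. On chromosome 17, CACNG5 was at 0 in all libraries, CACNG1 had at most 1.26, and CACNG4 between them was within 2-fold, as were the flanking PRKCA and HELZ. On chromosome 2 the order was SCN3A, SCN2A, CSRNP3, GALNT3, TTC21B, SCN1A, SCN9A and SCN7A. CSRNP3, a nuclear protein gene next to SCN2A, stood at 9.91, 10.37, 9.90 and 9.52, and at 11.76 in Differentiation, so the 2 adjacent genes were both over 2-fold higher while SCN9A in the same cluster was over 2-fold lower. At the other end SCN7A, which encodes a sodium-sensing channel, stood at 4.29, 5.06, 4.04 and 4.81, and at 4.58 in Differentiation, inside the range of the others.

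**Figure D3:**
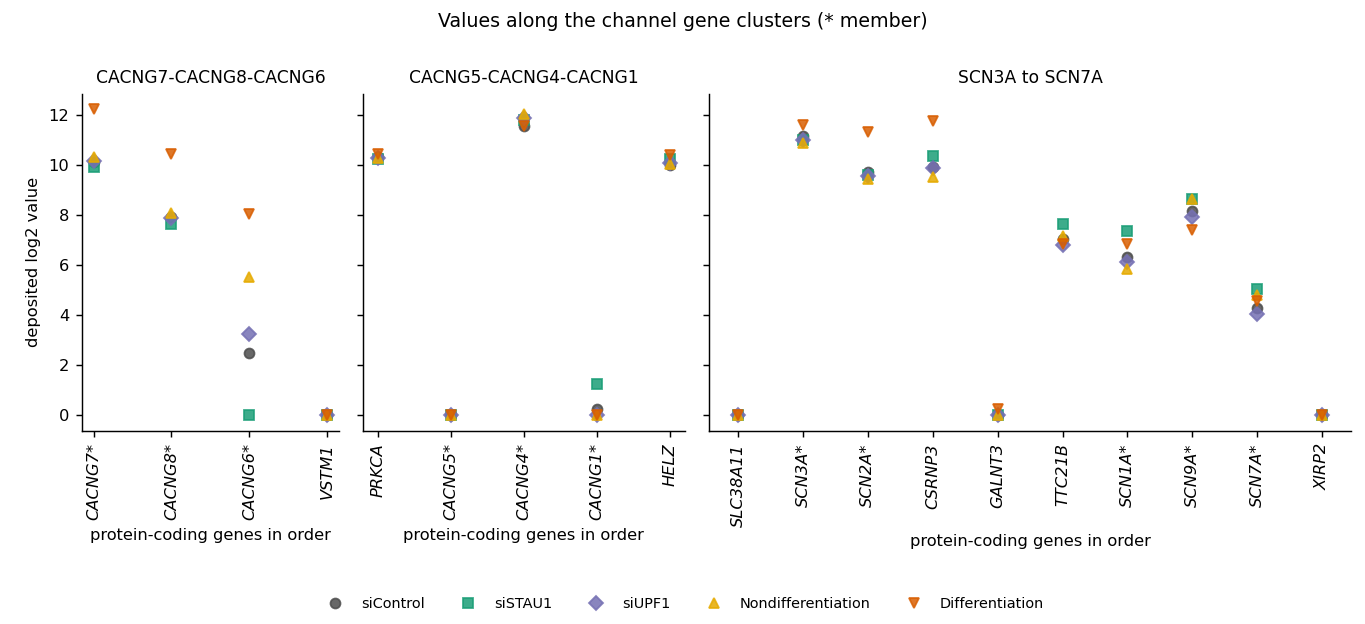
Deposited log2 values (y axis) of protein-coding genes in their order along 3 genomic clusters (x axis, members marked with an asterisk), 1 point per library. Differentiation is above the other libraries for CACNG7, CACNG8 and CACNG6, is inside their range for CACNG4, and is above them for SCN2A and CSRNP3 but below them for SCN9A.

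The remaining accessory calcium channel subunits stayed within 2-fold in this pair. CACNB3, a cytoplasmic beta subunit that carries the pore to the membrane, stood at 10.33, 10.32, 10.83 and 10.58, and at 11.53 in Differentiation, a log2 fold of 0.95 ± 0.04, just inside the threshold. CACNB2 and CACNB4 had log2 folds of -0.13 and 0.27. Of the extracellular alpha2delta subunits, CACNA2D1 (the gabapentin receptor) had a log2 fold of -0.44, and CACNA2D2 one of 0.90 ± 0.27 from values of 7.40, 8.02, 7.16 and 7.35, and 8.25. Exons of CACNA2D2 share 404 bases with CYB561D2 on the opposite strand, whose values did not run parallel to it. All pore genes were below the floor: CACNA1B (the N-type channel of presynaptic terminals) had counts of 6, 4, 0 and 20, and 18 in Differentiation, and CACNA1C (an L-type channel) had 0, 0, 23 and 0, and 23, where 23 is also its common divisor.

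The measured potassium channel genes at least 2-fold higher in Differentiation were KCNIP4, KCNT2 and KCNMB4. KCNIP4 encodes KChIP4, a calcium sensor that binds Kv4 pores. It had counts of 102, 144, 120 and 102, and 552 in Differentiation, all multiples of 6, with a log2 fold of 1.95 ± 0.38. All 3 Kv4 pore genes were themselves low: KCND2 and KCND3 had no count, and KCND1 had 3, 1, 7 and 2, and 66 in Differentiation. KCNT2, a sodium-activated channel, stood at 8.19, 8.20, 8.48 and 8.68, and at 9.69, a log2 fold of 1.01 ± 0.15. KCNMB4, a neuronal beta subunit of the BK channel, stood at 7.06, 6.90, 7.06 and 7.01, and at 8.06, a log2 fold of 1.05 ± 0.15. These last 2 are within 1 counting error of the 2-fold threshold. The other measured BK subunit, KCNMB3, had a log2 fold of 0.55, and KCNMA1, which encodes the BK pore, had counts of 44, 82, 0 and 18, and 60.

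Both voltage-gated potassium pores measured in this pair, KCNH1 and KCNH2, were within 2-fold. KCNH1 (EAG1) stood at 8.48, 8.50, 8.28 and 7.88, and at 8.67, a log2 fold of 0.79 ± 0.16 over Nondifferentiation, which was the lowest of the 5 libraries. KCNH2 (hERG) stayed between 10.90 and 11.25 in all 5 libraries. KCNQ5, an M-current subunit, stood at 8.14, 8.42, 8.32 and 7.73, and at 7.45, the lowest of the 5, and was below the floor in this pair. The beta subunits KCNAB1 and KCNAB3 had log2 folds of -0.45 and 0.34.

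KCNK15 and HCN3 have to be read with their neighbours. KCNK15 encodes TASK-5, a two-pore domain subunit that gives no current on its own. It stood at 11.96, 11.89, 12.02 and 12.02, and at 10.99 in Differentiation, a log2 fold of -1.03 ± 0.04. GENCODE release 29 places 506 exon bases of RIMS4, a presynaptic active zone gene, on the opposite strand, and RIMS4 stood at 12.94, 12.89, 13.02 and 13.00, and at 12.04. The log2 difference between RIMS4 and KCNK15 was 0.98 to 1.05 in all 5 libraries, and RefSeq lists 2 curated transcripts for RIMS4 and 1 for KCNK15, whereas it lists 2 each for HCN3 and PKLR. HCN3, a pacemaker channel subunit, had counts of 77, 64, 80 and 80, and 334 in Differentiation, a log2 fold of 1.54 ± 0.18. It shares 556 exon bases with PKLR (pyruvate kinase of liver and red cells) on the opposite strand. PKLR stood at 7.47, 7.23, 7.40 and 7.35, and at 8.94, which is 0.91 to 1.00 above HCN3 in every library. The sources used here do not say whether counting used strand, so these 2 differences cannot be told apart from those of RIMS4 and PKLR. Without KCNK15 and HCN3, 8 members were higher and 1 was lower. KCNMB3 shares 3403 exon bases with PIK3CA on the opposite strand, but PIK3CA did not run parallel to it.

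**Figure D4:**
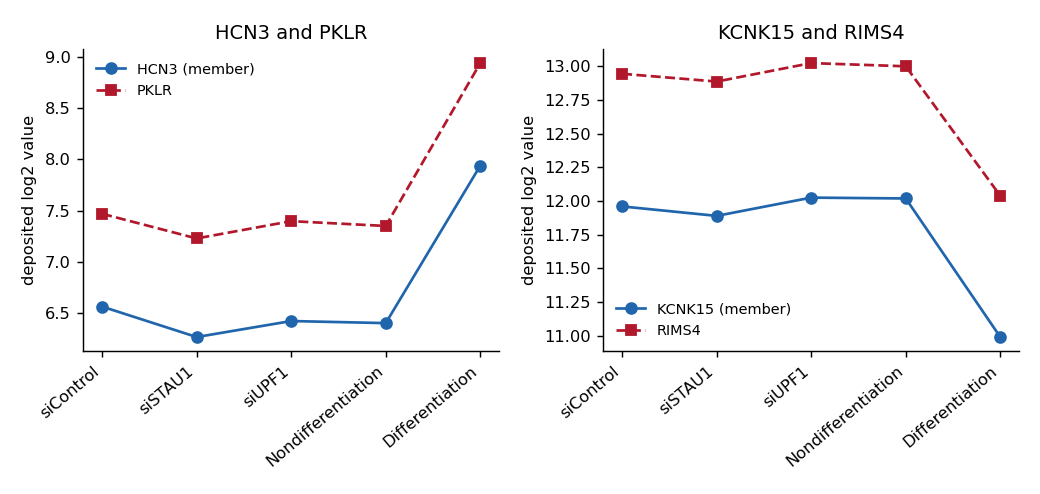
Deposited log2 values (y axes, not starting at 0) in the 5 libraries (x axes, 1 library each, lines only join the points) of HCN3 with PKLR and of KCNK15 with RIMS4, genes whose exons overlap on opposite strands. Each pair keeps a log2 difference of about 1 throughout (0.91 to 1.00 and 0.98 to 1.05).

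Below the floor in both libraries, 36 members had a count of 10 or more in Differentiation or Nondifferentiation. Of these 15 were at least 2-fold higher, beside 23.8% of 5615 such symbols, and 5 lower, beside 19.6%. With counts divided by the common divisor, 14 of 33 members with 10 or more were higher, beside 22.9% of 5289, and 4 lower, beside 18.9%. The genes named here were chosen after their values were seen. KCNC1 and KCNC2 encode Kv3 channels of fast-spiking neurons: KCNC1 had counts of 38, 26, 28 and 55, and 296 in Differentiation, and KCNC2 had 6, 12, 15 and 33, and 174. KCNJ11, the pore of the ATP-sensitive potassium channel, had counts of 2, 14, 24 and 29, and 216. KCNAB2, a Kv beta subunit, had 36, 54, 36 and 24, and 162. All 4 were highest in Differentiation, and their log2 folds over Nondifferentiation were 1.92, 1.80, 2.30 and 2.16, with counting errors of 0.21, 0.47, 0.28 and 0.77.

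Some low genes went the other way or appeared in 1 library. KCNQ1, known from the heart, had counts of 10, 16, 14 and 10, and 0 in Differentiation, and KCNJ4, an inward rectifier, had 6, 8, 16 and 22, and 0. KCNA3, a Kv1 channel known from lymphocytes, had 12, 12, 15 and 18, and 8. KCNK2 (TREK-1) had no count in 4 libraries and 15 in Differentiation. No inward rectifier was measured. KCNJ8, a pore of ATP-sensitive channels, stood at 6.44, 6.54, 5.67 and 6.40, and at 6.61 in Differentiation, and KCNJ3, a G protein-activated channel, at 5.37, 6.36, 5.22 and 5.27, and at 5.81. KCNK7, a two-pore domain gene, stood at 3.46, 2.26, 2.20 and 4.09, and at 4.41, and the pacemaker gene HCN2 at 2.49, 0.26, 0.26 and 2.38, and at 2.93. Differentiation was highest for KCNJ8, KCNK7 and HCN2 by small steps, and siSTAU1 for KCNJ3.

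After siSTAU1 no measured member passed 2-fold: 0 of 19 were higher, beside 0.0946% of 8454 measured symbols, and 0 lower, beside 0.106%. Their median log2 fold was 0.08, that of all measured symbols 0.005, and the central 95% of all symbols ran from -0.49 to 0.45. KCNAB1 (a Kv beta subunit that speeds inactivation) lay outside that range, with values of 8.30, 9.01, 8.27 and 8.64, and 8.19 in Differentiation, a log2 fold of 0.71 ± 0.11. CACNA2D2 (0.62 ± 0.31) and SCN9A (0.48 ± 0.12) were also above it, CACNA2D2 being measured only through its value in siSTAU1. SCN9A stood at 8.63 in Nondifferentiation as well, the same as in siSTAU1. CACNG8 was lowest at -0.31 ± 0.15. Of 26 members below the floor with a count of 10 or more, 3 were 2-fold higher (KCNH6, KCNJ11 and SCN1A), beside 6.58% of such symbols, and 2 lower, CACNA1A among them, beside 6.33%. With divided counts the same 3 of 20 members were higher, beside 5.36%, and 0 lower, beside 4.91%. The summed level of the epithelial markers was highest in siSTAU1. KRT8 and KRT18 had counts of 4 and 4 in siControl and 160 and 164 in siSTAU1. Of the 10 markers only CLDN7 and EPCAM were higher in siControl (9.16 and 2.49, against 8.96 and 2.26), EPCAM with 4 counts in each. The part of these markers in the channel values was not tested.

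After siUPF1, too, 0 of 19 measured members were 2-fold higher, beside 0.401% of 8475 measured symbols, and 0 lower, beside 0.142%. The median log2 fold was 0.05 against -0.013 over all, and no member lay outside the central 95% of all symbols, -0.52 to 0.62. KCNMB3 stood at 7.49 in siControl and 8.05 in siUPF1, a log2 fold of 0.56 ± 0.15 that was measured only through siUPF1, and CACNB3 at 10.33 and 10.83, a log2 fold of 0.50 ± 0.06. Both were highest in siUPF1 among the 4 libraries other than Differentiation, with 7.84 and 10.58 in Nondifferentiation. SCN9A was lowest at -0.22 ± 0.13. Below the floor 6 of 30 members were 2-fold higher (CACNA1C, KCNC2, KCNIP2, KCNJ11, KCNJ4 and KCNK9), beside 7.99%, and 3 lower (CACNA1A, KCNMA1 and KCNN2), beside 6.54%. With divided counts 3 of 23 were higher (KCNIP2, KCNJ11 and KCNK9), beside 6.43%, and 2 lower (KCNMA1 and KCNN2), beside 5.63%. KCNIP2, another calcium sensor of Kv4, had counts of 0, 6, 30 and 0, and 70 in Differentiation. The summed level of the hepatocyte markers was highest in siUPF1, and their part in these values was not tested.

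For the question of the design, the values of the same genes in the 3 comparisons stand side by side, and the comparisons with siSTAU1 and siUPF1 share siControl. KCNMB3 had log2 folds of -0.08 in siSTAU1, 0.56 in siUPF1 and 0.55 in Differentiation. CACNB3 had -0.01, 0.50 and 0.95. CACNA2D2 had 0.62, -0.24 and 0.90, and KCNIP4 had 0.44, 0.05 and 1.95. Not all of these folds were measured: KCNMB3 in siSTAU1, CACNA2D2 in siUPF1 and KCNIP4 in both depletions were below the floor, and in Differentiation CACNA2D2 and KCNIP4 passed it only in that library. Among genes over 2-fold higher in Differentiation and measured in both depletions, CACNG7 had -0.21 and 0.05, CACNG8 -0.31 and -0.06, SCN2A -0.12 and -0.17, SCN8A 0.11 and 0.31, and KCNT2 0.01 and 0.29. No measured member was 2-fold higher in either depletion, beside 0.0946% of all measured symbols after siSTAU1 and 0.401% after siUPF1. That is near the background and is not a result about channel genes.

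**Figure D5:**
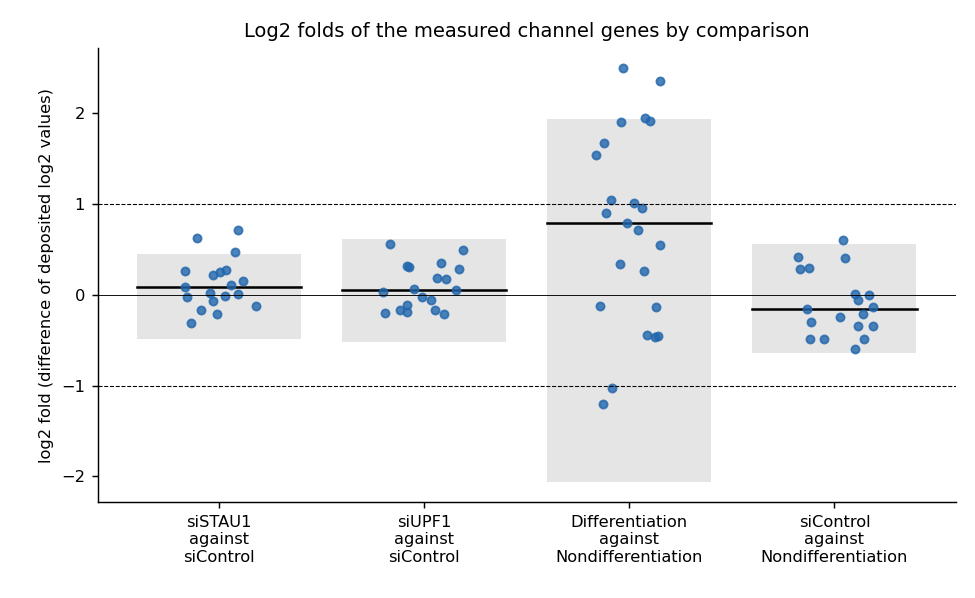
Log2 fold (y axis) of each measured channel gene (blue points, spread sideways at random) in the 4 comparisons (x axis), with the members' median (black line) and the central 95% of all measured symbols (grey). Members passed the dashed 2-fold lines in Differentiation against Nondifferentiation, and in none of the other 3 comparisons.

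The undifferentiated libraries siControl and Nondifferentiation gave the scale of differences without a depletion, although they differ in transfection and in the labelled retinoic acid. Of 19 measured members 0 were 2-fold higher, beside 0.222% of 8547 symbols, and 0 lower, beside 0.573%. The median was -0.16 and the extremes were KCNH1 at 0.60 ± 0.18 and CACNB2 at -0.59 ± 0.12, beside highest log2 folds of 0.71 after siSTAU1 and 0.56 after siUPF1. Over the 4 libraries other than Differentiation, the 17 members measured in all comparisons spanned a log2 range of 0.14 (KCNK15) to 0.74 (KCNAB1), with a median of 0.47 beside 0.33 for the 8210 symbols measured likewise. Below the floor 3 of 32 members were 2-fold higher, beside 7.14%, and 8 lower, beside 8.77%, CACNG6, CACNA1B and KCNC2 among them. With divided counts 2 of 28 were higher, beside 6.1%, and 8 lower, beside 7.75%.

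Presence and absence also varied among these 4 libraries. Of 46 members with a count of 20 or more in at least one of them, 6 had a count of 0 in another (13.04%, beside 0.76% of 13031 symbols), with CACNA1B, CACNA1C, CACNG6, KCNIP2 and KCNMA1 among them. When only genes with a highest count of 20 to 110 were taken, the 6 were 26.09% of 23 members, beside 3.37% of 2849 symbols. The counts of all 6 share a divisor above 1, between 2 for KCNMA1 and 23 for CACNA1C. After division by that divisor, 2 of 37 members with 20 or more counts had 0 in another library (5.41%, KCNMA1 among them), beside 0.284% of 12672 symbols. This last background was not limited to symbols with a highest count of 20 to 110, so it also holds far more abundant symbols.

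Genes of the channel complexes that are not subunits were read in the same way. Of 36 partner genes that bind, anchor or regulate channels, 14 were measured in the differentiation pair, with a median log2 fold of 0.14. Of these 3 were 2-fold higher, beside 10.4% of all measured symbols, and ANK2 and FGF11 were measured only through Differentiation: ANK2, an ankyrin (1.45), DLG4, the postsynaptic scaffold PSD-95 (1.13), and FGF11, an intracellular partner of sodium channels (1.11). FGF13, of the same family, was the 1 partner of 14 that was 2-fold lower, beside 10.9% of all, from 11.53 in Nondifferentiation to 10.52. REST stood at 10.20, 9.96, 10.14 and 9.88, and at 10.61 in Differentiation. After siSTAU1 none of 13 measured partners passed 2-fold, beside 0.0946% of all measured symbols higher and 0.106% lower. ANK3 (ankyrin-G of the axon initial segment) was highest at 0.72 and ANK2 lowest at -0.54. After siUPF1 none of 13 did, beside 0.401% higher and 0.142% lower, with STAC, an adaptor of L-type channels, highest at 0.73.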

How the data were processed

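RNA of SH-SY5Y cells was profiled with a Lexogen QuantSeq 3' end kit from 500 ng of total RNA, per the labels' protocols. Per the submitters' processing notes, the build was hg19 and the tools included Bowtie2 and edgeR. The sources used here do not give the annotation, the counting tool or the use of strand. The deposited values are log2 values for each symbol and library, without depth, and no count table was used. Their steps are those of quantile-normalized whole counts, which is an inference from the values: the lowest nonzero value of a library was taken as a count of 1, the next as 2 and so on, and the quantile normalization was repeated (tolerance 0.001 linear units). A count may stand for less than 1 read, and PCR reads without molecular identifiers are not independent, so counting errors are lower bounds.

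A log2 fold was the difference of 2 deposited log2 values, with no pseudocount. It is printed only where both counts, after division by the common divisor, were 4 or more. Calls needed 2-fold and a larger value no lower than the median nonzero value of the pair. Genes below that floor were counted apart, from 10 counts in either library, also after division by the common divisor, a choice made after seeing the data. The recovery and the calls were tested on simulated data. The simulated counts had no built-in common divisors, and the changed genes were taken from at least 2-fold above the floor. Shared divisors and changes in low genes were therefore not covered. Named genes were all measured members past 2-fold, the 2 highest by mean value in each role class, the extremes of classes with 3 or more measured members, and the 3 highest and lowest partner genes. Others were named after their values were seen. The members and lists were chosen with earlier results of these data known. Exon overlaps came from GENCODE release 29, and promoters, gene order and transcript numbers from RefSeq GRCh38.p14. Work used Python 3.11.15, pandas 2.3.3, numpy 2.4.6 and matplotlib 3.10.9. Alternatives changed the filter, pseudocount, centring and reference library. Those on recovered counts and on overlapping genes were chosen after seeing the data. Some members' values are not reported here.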

Additional observations from a re-analysis of the deposited data

How the results depend on the processing

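Of 78 alternative values 63 stayed within 1.5 times (counts of members) or 1 median counting error (medians), 14 moved and 1 reversed. Many of the 63 were member counts of 0 that stayed at 0 outside the differentiation pair. In those comparisons only 0.0946% to 0.573% of all measured symbols passed 2-fold in either direction, so the number 63 says little about stability. Without a filter on low values, members 2-fold higher and lower numbered 12 and 14 after siSTAU1 and 13 and 12 after siUPF1. They numbered 30 and 17 in Differentiation (median log2 fold 0.545) and 8 and 15 in siControl against Nondifferentiation. These numbers include genes with very few counts. In Differentiation a count of 1 was listed at -1.32, below the 0 listed for no count. KCNJ2 and KCNJ5, with 0 counts in Nondifferentiation and 1 in Differentiation, thus had the lower value in Differentiation. With the floor at the upper quartile, 6 members were left for each depletion and 9 for Differentiation. The median was then -0.042 after siSTAU1 (against 0.082, a reversal) and 0.186 after siUPF1. In Differentiation 4 were higher and 1 lower, with a median of 0.953. No share of all symbols is given without a filter or at this floor, so these member counts have no background beside them. Without HCN3 and KCNK15, 1 member was lower. Centring, a pseudocount of 32, recovered counts scaled by depth, and Nondifferentiation as the reference for both depletions moved none of these counts and medians past the limits, although the 9 members higher in Differentiation became 7 with the pseudocount and 8 with centring. No paired analysis was possible because each group has 1 library, and no library could be left out for the same reason. Depth limits the low genes: 70 members with counts were never measured.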
